A study of Homo sapiens with 4 samples.

Results

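EBC-1 is a human non-small cell lung cancer line with an amplified MET gene, labelled as a squamous lung cancer line. Its parental culture, at passages 35 to 37, gave 1 of the 4 RNA libraries of the series, and that library is described here gene by gene from the most to the least abundant. The other 3 libraries come from EBC-CR1, EBC-CR2 and EBC-CR3, lines made from EBC-1 by stepwise exposure to the MET kinase inhibitor capmatinib up to 1.5 µmol/L for EBC-CR1, 2.2 µmol/L for EBC-CR2 and 2.4 µmol/L for EBC-CR3. These resistant lines start from the same MET-amplified cells, were kept in 1 µmol/L capmatinib, and stood at passages 64 to 66 for EBC-CR1 and 81 to 83 for EBC-CR2 and EBC-CR3. They serve only to show whether a gene holds its place. Drug exposure, passage and line cannot be told apart, the sources used here do not say whether capmatinib was present at harvest, and each line is 1 culture read as 1 library.

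MET is the cell-surface receptor for hepatocyte growth factor (HGF). When HGF binds, the receptor's kinase domain recruits adaptors that feed the RAS-MAPK, PI3K-AKT and STAT3 pathways, and in lung cancers with extra copies of the gene the receptor can signal with little or no ligand. Squamous lung cancers are usually recognised by TP63, SOX2 and the basal keratins KRT5, KRT6 and KRT14, whereas KRT7, KRT8, KRT18 and KRT19 are the keratins of simple, single-layered epithelia.

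Levels are the deposited log2(units + 1) values, where a unit is the authors' normalized read unit, and rank 1 is the most abundant symbol. The libraries were 3′-end libraries, which give about 1 fragment per transcript, so levels were set side by side between genes without division by length. Across 13563 coding symbols above 0 in EBC-1, the Spearman correlation of level with transcript length was -0.13, a description over genes that all share 1 library. EBC-1 held 16140 of 26364 symbols above 0, at an estimated depth of 29.2 to 32.2 M reads, and 3 reads were worth 2.75 units there. The resistant libraries had estimated depths of 20.3 to 28.5 M reads. A listing at 0 does not show that a transcript is absent. With 1 library per line no difference could be tested, intervals cover counting error only, and in a bulk culture fewer cells of a kind and less RNA per cell cannot be told apart.

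The library labelled EBC-CR1 stood apart in its haemoglobin genes. HBB, a haemoglobin chain, was listed at 0 in EBC-1, with 13.90 (EBC-CR1), 0 (EBC-CR2) and 0 (EBC-CR3). HBA2 was at 11.61 and HBA1 at 9.21 in EBC-CR1, and both were listed at 0 in the other libraries. The source was not tested. All 10 erythroid and platelet symbols were listed at 0 in EBC-1. The numbering of the resistant lines is in doubt: the EBC-CR1 values stand under the heading EBC-R3 and the EBC-CR3 values under EBC-R1. Values given for those lines could therefore be exchanged, while statements over all 3 lines do not depend on it.

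The upstream sequences of a trio of genes frame what follows: CAV1, the second most abundant symbol of EBC-1; MET, the drug target; and KRT5, the basal keratin that a squamous label would lead one to look for and that was listed at 0. Each line gives the 250 bases before the first start site of the gene in RefSeq, build GRCh38.p14, 5′ to 3′ on the gene's strand. Capitals mark the GC box, GGGCGG on either strand. CAV1 lies on the plus strand at chr7:116524759-116525008, MET on the plus strand at chr7:116671946-116672195 and KRT5 on the minus strand at chr12:52520395-52520644.
CAV1: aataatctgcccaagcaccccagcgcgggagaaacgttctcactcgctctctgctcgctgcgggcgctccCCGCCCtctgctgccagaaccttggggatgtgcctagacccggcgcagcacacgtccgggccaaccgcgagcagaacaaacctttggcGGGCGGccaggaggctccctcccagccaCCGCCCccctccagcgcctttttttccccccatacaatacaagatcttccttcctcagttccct
MET: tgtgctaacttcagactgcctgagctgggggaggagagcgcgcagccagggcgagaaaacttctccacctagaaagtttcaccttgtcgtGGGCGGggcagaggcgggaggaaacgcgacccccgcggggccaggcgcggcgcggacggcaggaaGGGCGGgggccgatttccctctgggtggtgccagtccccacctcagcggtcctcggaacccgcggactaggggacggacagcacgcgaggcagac
KRT5: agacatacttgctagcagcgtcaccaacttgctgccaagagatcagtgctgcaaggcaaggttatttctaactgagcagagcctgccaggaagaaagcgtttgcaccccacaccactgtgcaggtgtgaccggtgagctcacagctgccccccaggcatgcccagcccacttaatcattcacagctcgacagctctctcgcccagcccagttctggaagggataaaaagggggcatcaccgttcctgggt
The CAV1 window held 3 GC boxes and the MET window held 2, whereas the KRT5 window held 0. None of these windows held TATAAA or CCAAT on either strand. Over the 80 matched promoters of the EBC-1 top 100, 73.75% held a GC box, against 28.44% of the 4818 promoters of symbols listed at 0 and 53.53% of all 16183 matched promoters. TATAAA was in 6.25% of the top 100 promoters, 16.75% of those at 0 and 9.17% of all. CCAAT was in 42.5% of the top 100 promoters, 33.19% of those at 0 and 34.34% of all. Median GC content was 66.2% in the top 100, 52.4% at 0 and 61.6% over all. The 11365 promoters of symbols above 0 in EBC-1 had a median GC content of 64.4%. Of these, 64.17% held a GC box, 5.957% TATAAA and 34.83% CCAAT. The TATAAA share of the top 100 was thus close to that of all symbols above 0, and its GC box share was higher. The deposited values do not measure binding, and a match is a description of letters only.

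The most abundant transcript of EBC-1 was HSP90AB1, a cytosolic chaperone for kinases and other clients, at 18.21, which alone took 1.216% of all units. The 10 highest symbols took 7.52%, the 100 highest ranks (102 symbols, because of a tie) took 26.64%, and the 500 highest took 50.77%. The median of the symbols above 0 was 7.85. By rank, the level was 15.52 at rank 50, 13.15 at rank 500 and 9.43 at rank 5000. Sorted levels were nearly the same in every library of the series, with the highest symbol at 18.21 in each. These shares and levels by rank are therefore not particular to EBC-1 and may be set by the normalization.

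**Figure D1:**
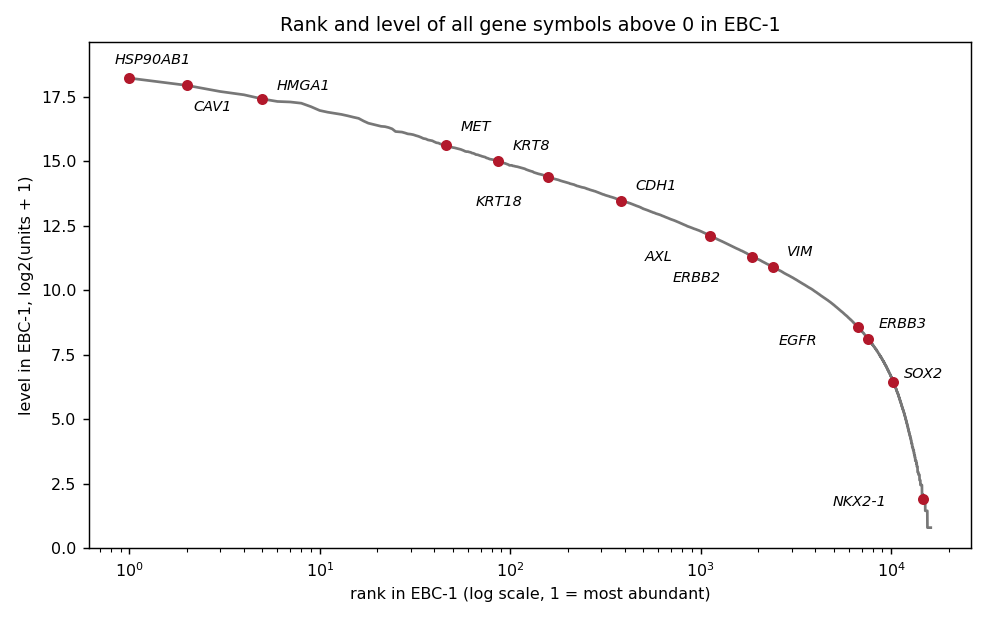
Level of every symbol above 0 in EBC-1 (log2(units + 1), vertical axis) against its rank (horizontal axis, log scale). Red points mark named genes, from HSP90AB1 at 18.21 and CAV1 at 17.93 through MET at 15.62 to EGFR at 8.57, SOX2 at 6.45 and NKX2-1 at 1.91.

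CAV1, which encodes the coat protein of caveolae, stood at rank 2. Its level was 17.93 in EBC-1, against 17.29 (EBC-CR1), 16.81 (EBC-CR2) and 17.57 (EBC-CR3), so it was in the highest 13 ranks of every library. CAV2, its partner in caveolae, was at 15.92 in EBC-1, against 15.08 (EBC-CR1), 15.37 (EBC-CR2) and 15.20 (EBC-CR3). MET was at 15.62 in EBC-1, against 15.34 (EBC-CR1), 15.47 (EBC-CR2) and 15.52 (EBC-CR3). The rank of MET was 46 in EBC-1, against 62 (EBC-CR1), 54 (EBC-CR2) and 50 (EBC-CR3). The 95% counting interval of the EBC-1 level of MET was 15.61 to 15.63. EBC-1 was the highest of the 4 libraries for each of these genes, but for CAV2 and MET by less than 2-fold over every resistant library.

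CAV2, CAV1 and MET are next to each other on chromosome 7, in the order of protein-coding genes of RefSeq GRCh38.p14. They were the only run of 3 neighbouring coding genes within the EBC-1 top 100, and also within its top 200. The other top 100 neighbours were RPLP0 and PXN on chromosome 12. The genes around the trio were lower: TES, a focal adhesion protein gene, was at 13.59 in EBC-1, against 12.35 (EBC-CR1), 12.32 (EBC-CR2) and 12.50 (EBC-CR3). CAPZA2, an actin-capping subunit, was at 12.52 in EBC-1, against 11.36 (EBC-CR1), 11.57 (EBC-CR2) and 11.39 (EBC-CR3). CFTR, WNT2 and ASZ1, also nearby, were listed at 0 in EBC-1. Chromosome 7 held 4.767% of the coding symbols above 0, 7.05% of the units and 8 members of the top 100. It was not alone in this: chromosome 12 held 5.443% of the symbols, 9.342% of the units and 12 members, and chromosome 11 held 5.731%, 8.344% and 11. DNA copy number was not measured in these libraries.

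Behind HSP90AB1 and CAV1 came TUBA1C and TUBB, which encode subunits of microtubules, GAPDH of glycolysis, and HMGA1, a chromatin-bending protein common in carcinomas. TUBA1C was at 17.69 in EBC-1, against 16.70 (EBC-CR1), 15.96 (EBC-CR2) and 16.89 (EBC-CR3). TUBB was at 17.29 in EBC-1, against 16.75 (EBC-CR1), 15.80 (EBC-CR2) and 16.65 (EBC-CR3). Both tubulins were highest in EBC-1 and lowest in EBC-CR2. HMGA1 was at 17.41 in EBC-1, with 17.57 (EBC-CR1), 16.70 (EBC-CR2) and 16.75 (EBC-CR3). GANAB, the catalytic subunit of an endoplasmic reticulum glucosidase, was at 17.31 in EBC-1, with 17.69 (EBC-CR1), 16.96 (EBC-CR2) and 17.11 (EBC-CR3). Levels of both GANAB and HMGA1 overlapped those of the resistant lines.

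Rank 8 was held by LRRC75A-AS1, a long non-coding RNA that hosts small nucleolar RNAs, at 17.24 in EBC-1, against 17.93 (EBC-CR1), 18.21 (EBC-CR2) and 18.21 (EBC-CR3). It was the first or second symbol of each resistant library. B2M, the light chain of HLA class I, was at 16.25 in EBC-1, against 17.11 (EBC-CR1), 17.93 (EBC-CR2) and 16.96 (EBC-CR3), and it too was lowest in EBC-1. Adhesion and membrane genes among the highest 40 were CTNND1 (p120 catenin) at 16.47, APLP2 at 16.85, the tetraspanin CD63 at 16.81 and the metalloprotease ADAM15 at 16.13 in EBC-1. Cell cycle and transport genes there were UBE2C, the ubiquitin-conjugating enzyme of the anaphase-promoting complex, at 16.09 and the nuclear transport GTPase RAN at 16.04. The rest of the 40 were TPD52L2 at 16.65, TAGLN2 at 16.42, YWHAZ at 16.35, MORF4L2 at 16.33, HNRNPF at 15.88, SERF2 at 15.86, H2AFV at 15.80 and HINT1 at 15.75, with PTMA, the translation and metabolic genes given below.

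**Figure D2:**
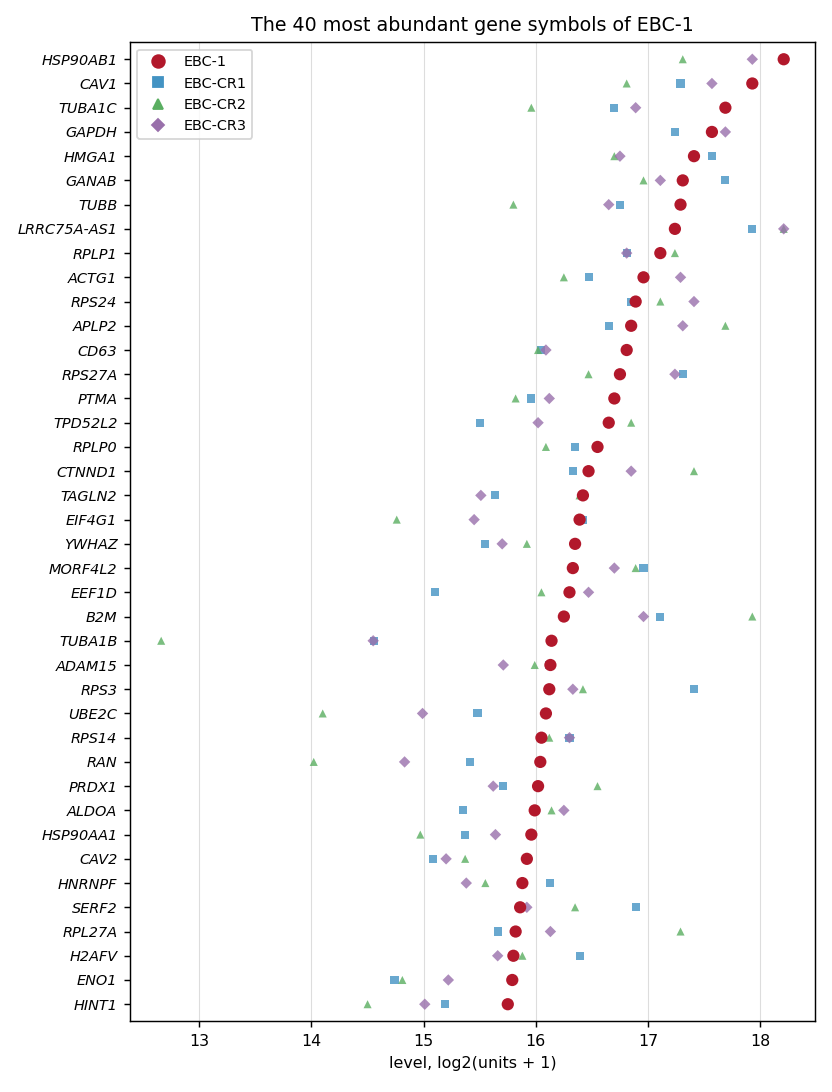
Levels (log2(units + 1)) of the 40 most abundant symbols of EBC-1, with 1 point for each of the 4 libraries. EBC-1 runs from 18.21 for HSP90AB1 to 15.75 for HINT1; TUBA1B, at 16.14 in EBC-1, is the member that was at least 2-fold lower in every resistant library.

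A level within 2-fold of EBC-1 in all 3 resistant libraries was found for 6957 of the 13371 symbols at 10 or more units in EBC-1, which is 52.0%. EBC-1 was at least 2-fold higher than all 3 for 786 symbols (5.88%) and at least 2-fold lower for 563 (4.21%). All of these ratios share the 1 EBC-1 library, so these shares are the background for every list below and not a measure of drug response. Without EBC-CR1 the number within 2-fold was 7566, though leaving out a line can only keep or raise it. In the top 1000, 61.9% were within 2-fold in all 3, 5.3% were at least 2-fold higher in EBC-1 and 0.6% at least 2-fold lower. In the top 100, 62 of 102 symbols (60.8%) were within 2-fold in all 3, 6 (5.88%) were at least 2-fold higher in EBC-1, and 0 were 2-fold lower. Those 6 were TUBA1B, LMNA, TPM3, EIF4G2, KRT8 and HPCAL1. Of the same 102 symbols, 54 were in the top 100 of all 3 resistant libraries (52.94%) and 25 were in the top 100 of none. EBC-1 shared 65 top 100 symbols with EBC-CR1, 67 with EBC-CR2 and 66 with EBC-CR3. Pairs of resistant lines shared 68 (EBC-CR1 and EBC-CR2), 81 (EBC-CR1 and EBC-CR3) and 74 (EBC-CR2 and EBC-CR3).

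Of the EBC-1 top 500, none was listed at 0 in any resistant library. Levels of 295 were within 2-fold in all 3, beside 52.0% of all symbols at 10 or more units. For 23 the EBC-1 level was at least 2-fold above all 3, beside 5.88%. The symbol that lost most ground was MYADM, a membrane protein of lipid rafts, at 13.95 in EBC-1, against 10.00 (EBC-CR1), 9.73 (EBC-CR2) and 11.25 (EBC-CR3). Its rank was 248 in EBC-1, against 3891 (EBC-CR1), 4385 (EBC-CR2) and 1936 (EBC-CR3). Also among the 10 with the largest drops was PHLDA1, an immediate-early gene of growth factor signalling, at 14.26 in EBC-1, against 12.04 (EBC-CR1), 11.54 (EBC-CR2) and 11.44 (EBC-CR3). FOSL1, an AP-1 subunit induced by MAPK signalling, was at 13.81 in EBC-1, against 12.22 (EBC-CR1), 11.10 (EBC-CR2) and 11.25 (EBC-CR3). The nuclear and cytoskeletal members were LMNA, PLEC and TUBA1B. LMNA, the A-type lamin gene, was at 15.43 in EBC-1, against 13.45 (EBC-CR1), 13.72 (EBC-CR2) and 13.31 (EBC-CR3). PLEC, the cytolinker plectin, was at 14.51 in EBC-1, against 12.32 (EBC-CR1), 12.79 (EBC-CR2) and 11.94 (EBC-CR3). Others of the 10 were HPCAL1 at 14.91, PRICKLE3 at 13.19 and UBE2E3 at 13.38 in EBC-1.

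The 10 steadiest ranks in the top 500 were led by SEPT9 and SEC11A. SEPT9, a septin of the cytoskeleton, was at rank 132 in EBC-1, with 135 (EBC-CR1), 133 (EBC-CR2) and 139 (EBC-CR3). SEC11A, a signal peptidase subunit, was at rank 113 in EBC-1, with 109 (EBC-CR1), 117 (EBC-CR2) and 115 (EBC-CR3). The RNA-binding protein STAU1, the actin bundler FSCN1, the endothelin-converting enzyme ECE1, RAD23B, RPL6, DDX6, APTX and RPS14 made up the rest of the 10.

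Among 58 receptor tyrosine kinases, MET was the highest in EBC-1 and DDR1, a collagen receptor, was second. In EBC-1, 22 of the 58 were listed at 0, 26 reached 10 units and 9 reached 1000 units. Over all 26364 symbols, 10224 were listed at 0, 13371 reached 10 units and 3958 reached 1000 units. The list median was 1.91, against 3.70 over all listed symbols. Of the 26, 7 were within 2-fold in all 3 resistant libraries, 1 was at least 2-fold higher in EBC-1 and 3 were at least 2-fold lower. The shares over all symbols at 10 or more units were 52.0% within 2-fold, 5.88% higher and 4.21% lower. DDR1 was at 14.97 in EBC-1, against 15.47 (EBC-CR1), 16.13 (EBC-CR2) and 15.82 (EBC-CR3). MET thus led DDR1 in EBC-1, while DDR1 was above MET in all 3 resistant libraries.

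The next receptors in EBC-1 were EPHB2 and EPHB4, which bind ephrin-B ligands, PTK7, a pseudokinase of planar cell polarity, and AXL, which binds GAS6. EPHB2 was at 13.65 in EBC-1, with 13.71 (EBC-CR1), 14.30 (EBC-CR2) and 13.64 (EBC-CR3). EPHB4 was at 12.71 in EBC-1, against 11.36 (EBC-CR1), 12.28 (EBC-CR2) and 11.85 (EBC-CR3). PTK7 was at 12.28 in EBC-1, against 13.31 (EBC-CR1), 12.53 (EBC-CR2) and 12.94 (EBC-CR3). AXL was at 12.11 in EBC-1 (rank 1122), against 13.49 in EBC-CR1 (rank 376), 12.19 in EBC-CR2 (rank 1063) and 13.82 in EBC-CR3 (rank 281). EBC-1 and EBC-CR2 were close for AXL, and the other two resistant lines were higher. EPHA2, an ephrin-A receptor, was at 11.98 in EBC-1, against 11.86 (EBC-CR1), 10.86 (EBC-CR2) and 9.94 (EBC-CR3). RYK, a Wnt co-receptor, was at 11.57 in EBC-1, with 12.32 (EBC-CR1), 11.95 (EBC-CR2) and 11.68 (EBC-CR3).

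The ERBB family was far below MET in EBC-1. ERBB2, the orphan receptor HER2, was its highest member, at 11.31 in EBC-1, with 11.73 (EBC-CR1), 11.82 (EBC-CR2) and 11.79 (EBC-CR3). EGFR was at 8.57 in EBC-1, against 10.57 (EBC-CR1), 10.63 (EBC-CR2) and 10.95 (EBC-CR3), or 379.5 units and rank 6684 in EBC-1. Its EBC-1 counting interval, 8.44 to 8.70, lay below every resistant library, and the log2 differences, EBC-1 minus line, were -2.00 for EBC-CR1, -2.06 for EBC-CR2 and -2.38 for EBC-CR3. ERBB3, the kinase-impaired partner of ERBB2, was at 8.12 in EBC-1, with 7.05 (EBC-CR1), 8.33 (EBC-CR2) and 7.65 (EBC-CR3). ERBB4 was at 1.91 in EBC-1, with 4.27 (EBC-CR1), 0 (EBC-CR2) and 5.25 (EBC-CR3).

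INSR and IGF1R, the insulin and insulin-like growth factor receptors, were with EGFR the 3 receptor kinases, of the 26 at 10 or more units in EBC-1, that were at least 2-fold lower there than in every resistant line. INSR was at 7.70 in EBC-1, against 9.78 (EBC-CR1), 8.83 (EBC-CR2) and 10.42 (EBC-CR3). IGF1R was at 7.09 in EBC-1, against 8.84 (EBC-CR1), 10.03 (EBC-CR2) and 9.54 (EBC-CR3). EPHB6, a kinase-dead ephrin receptor, was the 1 member of those 26 at least 2-fold higher in EBC-1: 9.69 in EBC-1, against 0 (EBC-CR1), 5.15 (EBC-CR2) and 3.29 (EBC-CR3). FGFR1 was next to it in order, at 9.66 in EBC-1, with 10.99 (EBC-CR1), 9.04 (EBC-CR2) and 11.43 (EBC-CR3). The EBC-1 counting intervals of EPHB6 (9.60 to 9.78) and FGFR1 (9.58 to 9.75) overlapped, as did those of EGFR and TYRO3 (8.31 to 8.58), so the order within these pairs is not fixed by the depth. The remaining members at 10 or more units in EBC-1 ran from EPHA1 at 8.87 and LMTK2 at 8.85 through TYRO3 at 8.45, MST1R, the closest relative of MET, at 7.89, EPHA10 at 7.47, MERTK at 7.37, ROR1 at 7.27, STYK1 at 6.93, EPHB3 at 6.43 and LMTK3 at 6.08 to FGFR4 at 4.09. Listed at 0 in EBC-1 were, among others, KIT, PDGFRA, RET, ROS1, FGFR3, KDR and NTRK3, while ALK was at 0.81.

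**Figure D3:**
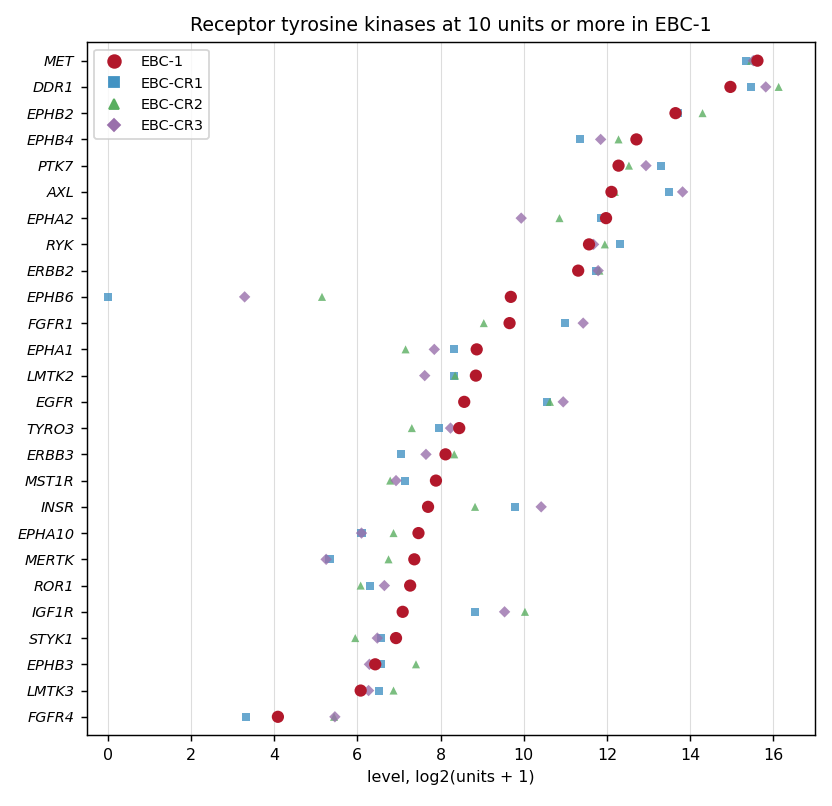
Levels (log2(units + 1)) of the receptor tyrosine kinases at 10 or more units in EBC-1, ordered by EBC-1, with 1 point for each of the 4 libraries. MET at 15.62 and DDR1 at 14.97 lead in EBC-1, and EGFR (8.57), INSR (7.70) and IGF1R (7.09) lie left of all 3 resistant points.

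The symbol HGF, for the ligand of MET, stood at 0 in EBC-1 and in all 3 resistant libraries. Of 8 genes that process HGF outside the cell or inhibit its processing, 4 reached 10 units in EBC-1. SPINT2, an inhibitor of HGF-activating proteases, was at 14.81 in EBC-1, with 15.38 (EBC-CR1), 14.53 (EBC-CR2) and 15.03 (EBC-CR3). ST14 (matriptase), a membrane protease that can activate HGF, was at 12.93 in EBC-1, against 14.16 (EBC-CR1), 13.49 (EBC-CR2) and 13.75 (EBC-CR3). SPINT1, a second inhibitor, was at 9.71 in EBC-1, against 10.39 (EBC-CR1), 10.94 (EBC-CR2) and 10.82 (EBC-CR3). The proteases TMPRSS2, HPN, HGFAC and F2 were listed at 0 in EBC-1.

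VEGFA, the endothelial growth factor, was the highest of 36 receptor kinase ligands, at 15.30 in EBC-1 (rank 64), against 14.36 in EBC-CR1 (rank 163), 14.29 in EBC-CR2 (rank 174) and 14.64 in EBC-CR3 (rank 124). Its main receptor KDR was listed at 0 in EBC-1. Ligands of EGFR followed. TGFA was at 11.81 in EBC-1, against 11.09 (EBC-CR1), 11.66 (EBC-CR2) and 10.70 (EBC-CR3). AREG was at 10.63 in EBC-1, against 9.72 (EBC-CR1), 10.06 (EBC-CR2) and 9.27 (EBC-CR3). HBEGF was at 10.46 in EBC-1, with 11.44 (EBC-CR1), 10.45 (EBC-CR2) and 10.51 (EBC-CR3). TGFA and AREG were thus highest in EBC-1, where EGFR itself was lowest. PDGFA was at 10.64 in EBC-1, with 10.22 (EBC-CR1), 12.58 (EBC-CR2) and 10.73 (EBC-CR3). IGF2, an insulin-like growth factor, was at 9.93 in EBC-1, against 6.85 (EBC-CR1), 8.06 (EBC-CR2) and 6.93 (EBC-CR3). IGF2 was thus highest, and IGF1R lowest, in EBC-1. Of the 26 ligands at 10 or more units, 4 were within 2-fold in all 3 resistant libraries, beside 52.0% of all symbols. At least 2-fold higher in EBC-1 were 2 (IGF2 and VEGFC), beside 5.88%, and at least 2-fold lower were 3 (PDGFC, EFNA1 and EFNB1), beside 4.21%.

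Of 28 adaptors and effectors downstream of MET, 26 reached 10 units in EBC-1, with a list median of 10.30. Of these, 18 were within 2-fold in all 3 resistant libraries, beside 52.0% of all symbols. In this list 0 were 2-fold higher or lower than all 3, beside 5.88% and 4.21% of all symbols. AKT2, a serine-threonine kinase of the PI3K pathway, was the highest, at 14.19 in EBC-1, with 15.01 (EBC-CR1), 13.41 (EBC-CR2) and 14.38 (EBC-CR3). PTPN1, a phosphatase of receptor kinases, was at 12.96 in EBC-1, with 13.01 (EBC-CR1), 12.55 (EBC-CR2) and 12.25 (EBC-CR3). STAT3 was at 11.89 in EBC-1, against 12.20 in EBC-CR1 and 13.51 in EBC-CR2, with EBC-CR3 between those values. STAT3 was lowest in EBC-1. The docking and adaptor genes GRB2 (11.42), SHC1 (11.01) and GAB1 (8.18) and the kinase AKT1 (11.22) lay below it in EBC-1, and PIK3CA (3.29) and BRAF (4.51) were near the lower end of detection.

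Of the 34 cytokine and growth-inhibitory receptors 32 reached 10 units in EBC-1. Within 2-fold in all 3 resistant libraries were 13 of those, beside 52.0% of all symbols. The highest were of the tumour necrosis factor receptor family: TNFRSF12A at 12.67 in EBC-1, against 11.70 (EBC-CR1), 11.37 (EBC-CR2) and 11.06 (EBC-CR3), then LTBR at 12.32, TNFRSF21 at 12.30, CD40 at 11.28 and TNFRSF1A at 11.12 in EBC-1. IL4R was at 11.19 in EBC-1, against 12.53 (EBC-CR1), 14.11 (EBC-CR2) and 12.68 (EBC-CR3). Of the 32, it was 1 of 5 at least 2-fold lower in EBC-1 than in all 3, with IL6R, OSMR, IFNGR1 and BMPR1B. The share lower over all symbols was 4.21%.

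Among 52 other surface receptors, 39 reached 10 units in EBC-1. ADGRG1, an adhesion G protein coupled receptor, was the highest, at 14.73 in EBC-1, with 14.31 (EBC-CR1), 15.11 (EBC-CR2) and 14.80 (EBC-CR3). ITGA2, the collagen-binding integrin subunit, was at 14.41 in EBC-1, against 12.61 (EBC-CR1), 13.61 (EBC-CR2) and 12.76 (EBC-CR3). ITGA6, the laminin-binding subunit, was at 12.68 in EBC-1, against 10.60 (EBC-CR1), 11.13 (EBC-CR2) and 10.34 (EBC-CR3). Their shared partner ITGB1 was at 12.94 in EBC-1, with 12.88 (EBC-CR1), 13.39 (EBC-CR2) and 12.95 (EBC-CR3), so both alpha subunits were highest in EBC-1 while ITGB1 was not. The proteoglycans SDC1 (13.76) and SDC4 (13.02) were also abundant in EBC-1. CD44, the hyaluronan receptor, was at 12.60 in EBC-1, against 14.17 (EBC-CR1), 13.63 (EBC-CR2) and 13.98 (EBC-CR3). PLXNB2 was listed at 0 in all 4 libraries.

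The label calls EBC-1 squamous, and the defining squamous markers were largely undetected. Of 12 such markers, 7 were listed at 0 in EBC-1 (TP63, KRT5, KRT14, KRT6A, KRT6B, PKP1 and CLCA2), and 1 reached 10 units. The 12 summed to 93.75 units in EBC-1, of which SOX2 gave 86.25, against 746.0 (EBC-CR1), 3256 (EBC-CR2) and 2200 (EBC-CR3). SOX2, the squamous and stem cell factor, was at 6.45 in EBC-1, against 9.33 (EBC-CR1), 9.25 (EBC-CR2) and 10.85 (EBC-CR3); its EBC-1 counting interval was 6.17 to 6.71. TP63 was at 0 in EBC-1, against 6.65 (EBC-CR1), 11.32 (EBC-CR2) and 8.43 (EBC-CR3). KRT5 and KRT14 were at 0 in all 4 libraries.

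The wider squamous list of 24 genes had 9 members at 10 or more units in EBC-1. Its highest, SFN (14-3-3 sigma) and PERP, are found in many epithelia. SFN was at 13.86 in EBC-1, with 13.14 (EBC-CR1), 14.26 (EBC-CR2) and 12.82 (EBC-CR3). PERP was at 11.22 in EBC-1, with 10.51 (EBC-CR1), 12.60 (EBC-CR2) and 10.78 (EBC-CR3). The Notch ligand JAG1 was at 9.76 in EBC-1, with 9.39 (EBC-CR1), 10.13 (EBC-CR2) and 9.10 (EBC-CR3). S100A2 was at 9.68 in EBC-1, with 8.08 (EBC-CR1), 11.10 (EBC-CR2) and 8.08 (EBC-CR3). EBC-1 lay within the range of the resistant lines for SFN, PERP, JAG1 and S100A2, with EBC-CR2 the highest of the 4 in each case. BCL11A was at 5.79 in EBC-1, against 7.17 (EBC-CR1), 7.73 (EBC-CR2) and 7.52 (EBC-CR3). SPRR1A (5.09) and PAX9 (4.36) were also above 10 units in EBC-1.

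The fixed markers of other lung cell types also summed to few units in EBC-1. The 6 alveolar markers summed to 18.5 units in EBC-1, against 17.25 (EBC-CR1), 20.75 (EBC-CR2) and 79.5 (EBC-CR3). NKX2-1, the master regulator of alveolar and airway epithelium, was at 1.91 in EBC-1, about 3 reads, against 3.88 (EBC-CR1), 3.61 (EBC-CR2) and 6.08 (EBC-CR3). The 6 neuroendocrine markers summed to 3.25 units in EBC-1, against 3.0 (EBC-CR1), 3.0 (EBC-CR2) and 12.0 (EBC-CR3). The wider neuroendocrine list of 18 genes summed to 2329 units in EBC-1, with 5 members at 10 or more units. Over all 26364 symbols, 13371 reached 10 units. Its highest members were the Notch ligand DLL3 (9.70), ENO2 (9.56) and SYT1 (9.45) in EBC-1. The 4 leukocyte markers summed to 7.0 units in EBC-1, against 7.75 (EBC-CR1), 9.5 (EBC-CR2) and 0 (EBC-CR3), and PTPRC was listed at 0 in EBC-1. The wider leukocyte list of 18 genes summed to 3221 units in EBC-1. Its 4 members at 10 or more units were the actin bundler LCP1 (10.79), LAPTM5 (9.83), CD68 (8.91) and CORO1A (5.33). LAPTM5 was at 3.88 (EBC-CR1), 7.99 (EBC-CR2) and 0 (EBC-CR3). DCN, LUM, PECAM1 and VWF, of fibroblasts and endothelium, were all listed at 0 in EBC-1. From the wider alveolar and airway lists, MUC1 was at 8.92 and the secretory genes AGR2 at 10.61 and WFDC2 at 8.89 in EBC-1.

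Epithelial genes were abundant: 34 of 36 reached 10 units in EBC-1, with a list median of 9.96. The 6 fixed epithelial markers summed to 87130 units in EBC-1, against 70540 (EBC-CR1), 87010 (EBC-CR2) and 75290 (EBC-CR3). CDH1 (E-cadherin) was at 13.47 in EBC-1, against 14.28 (EBC-CR1), 13.98 (EBC-CR2) and 14.47 (EBC-CR3). PKP3, a desmosomal plakophilin, was at 13.35 in EBC-1, against 11.87 in EBC-CR1 and 12.14 in EBC-CR3, with EBC-CR2 between EBC-1 and EBC-CR3. The tight junction claudins CLDN7 (13.25) and CLDN4 (13.13) and the splicing regulator ESRP1 (13.02) followed in EBC-1. EPCAM was at 11.22 in EBC-1, with 10.94 (EBC-CR1), 10.41 (EBC-CR2) and 10.65 (EBC-CR3). Of the 34, 12 were within 2-fold in all 3 resistant libraries, 1 (RAB25) was at least 2-fold higher in EBC-1 and 7 were at least 2-fold lower. They included CDH3, CLDN1, ELF3, EHF, KLF5 and CD24. The shares over all symbols were 52.0% within 2-fold, 5.88% higher and 4.21% lower. ELF3, an epithelial ETS factor, was at 9.22 in EBC-1, against 10.98 (EBC-CR1), 12.69 (EBC-CR2) and 11.25 (EBC-CR3). 

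Mesenchymal genes were present beside the epithelial ones, at a list median of 5.14 over 30 genes. CDH2 (N-cadherin) was at 11.87 in EBC-1, against 13.07 (EBC-CR1), 11.91 (EBC-CR2) and 13.60 (EBC-CR3). VIM, the mesenchymal intermediate filament, was at 10.91 in EBC-1 (rank 2389), against 8.53 (EBC-CR1), 4.17 (EBC-CR2) and 9.29 (EBC-CR3). LGALS1 (galectin-1) was at 11.02 in EBC-1, against 6.96 (EBC-CR1), 8.96 (EBC-CR2) and 7.96 (EBC-CR3). FN1 (fibronectin) was at 9.66 in EBC-1, against 11.74 (EBC-CR1), 13.04 (EBC-CR2) and 11.25 (EBC-CR3). VIM and LGALS1 were thus at least 2-fold higher in EBC-1 than in every resistant line, and FN1 at least 2-fold lower. Of 18 members at 10 or more units, 4 were higher in this way (VIM, LGALS1, COL6A1 and COL6A2), beside 5.88% of all symbols. Lower were 3 (FN1, COL1A1 and COL5A1), beside 4.21%, and 1 was within 2-fold in every resistant line, beside 52.0%. TGFBI was at 11.31 and COL6A1 at 9.78 in EBC-1, and the transcription factor ZEB1 was at 5.43.

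CALB2 (calretinin), a calcium-binding protein used as a mesothelial marker, was at 13.05 in EBC-1 (rank 544), against 5.02 (EBC-CR1), 5.58 (EBC-CR2) and 5.66 (EBC-CR3). The log2 differences, EBC-1 minus line, were 8.03 for EBC-CR1, 7.48 for EBC-CR2 and 7.39 for EBC-CR3. Of the 9 mesothelial markers, 3 reached 10 units in EBC-1: CALB2, HAS1 (9.17) and UPK3B (6.65). MSLN was listed at 0 and WT1 was at 2.09.

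The lineage transcription factors were led by HMGA1, then KLF6, a zinc-finger factor, at 14.01 in EBC-1, with 14.66 (EBC-CR1), 13.78 (EBC-CR2) and 14.46 (EBC-CR3). ID1 (13.53), ETS1 (13.35) and SOX4 (13.10) came next in EBC-1. Of 41 members at 10 or more units, 11 were within 2-fold in all 3 resistant libraries, beside 52.0% of all symbols. At least 2-fold higher in EBC-1 were 7, beside 5.88%, and at least 2-fold lower were 3, beside 4.21%. FOXQ1, a forkhead factor of epithelial tumours, was at 12.33 in EBC-1, against 9.09 (EBC-CR1), 9.50 (EBC-CR2) and 8.92 (EBC-CR3). ETV4 and ETV5 are ETS factors induced by MAPK signalling. ETV4 was at 11.11 in EBC-1, against 8.27 (EBC-CR1), 6.98 (EBC-CR2) and 8.71 (EBC-CR3), and ETV5 was at 10.46 in EBC-1, against 8.93 (EBC-CR1), 7.57 (EBC-CR2) and 8.44 (EBC-CR3). TP73, a relative of TP63, was at 9.79 in EBC-1, against 8.24 (EBC-CR1), 5.58 (EBC-CR2) and 6.25 (EBC-CR3), the opposite order to TP63. The higher members also included BATF and HMGA2, and the lower ones included MITF and MYCL. MYC was at 8.19 in EBC-1, against 10.52 (EBC-CR1), 8.58 (EBC-CR2) and 9.53 (EBC-CR3).

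**Figure D4:**
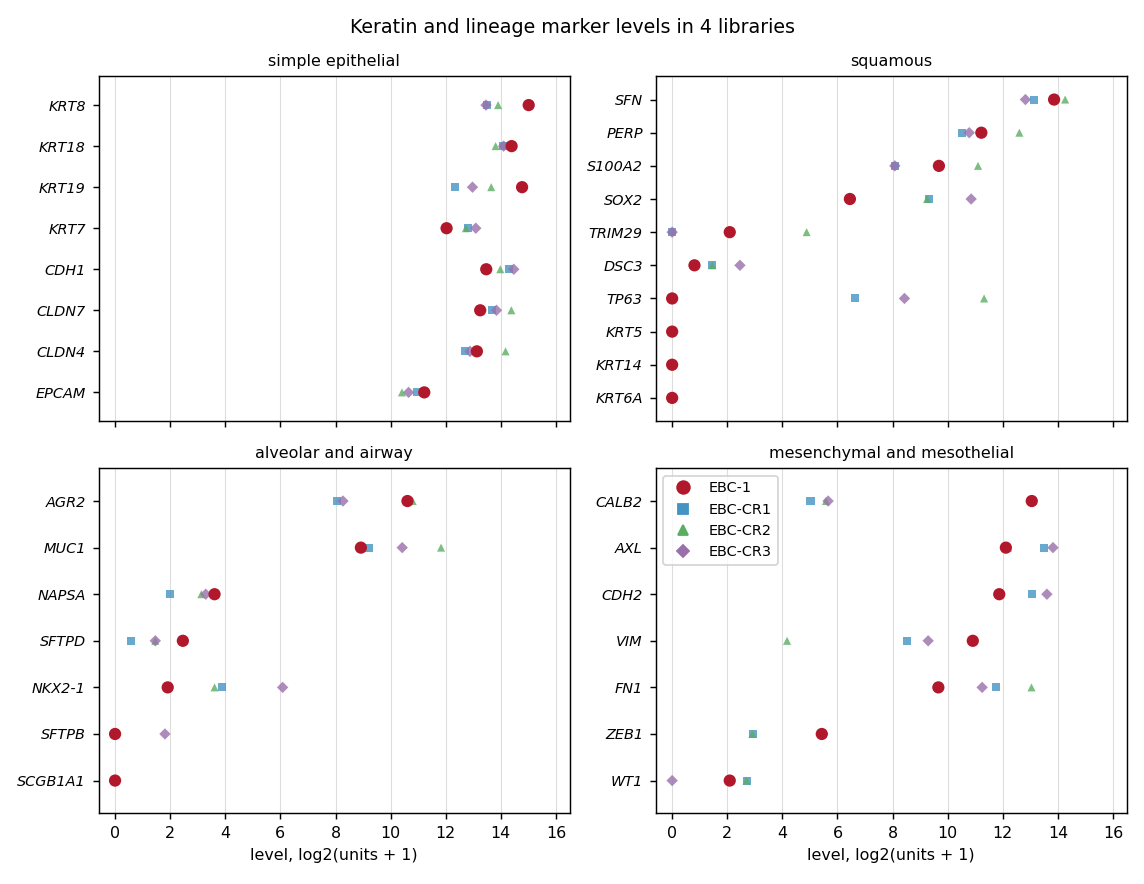
Levels (log2(units + 1)) of keratins and lineage markers in the 4 libraries, EBC-1 first. In EBC-1 the simple-epithelial keratins KRT8 (15.01), KRT19 (14.77) and KRT18 (14.39) are high, while KRT5, KRT14 and TP63 are listed at 0.

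Keratins, which pair as type I and type II chains to form epithelial filaments, took 0.359% of the EBC-1 units. Of 54 keratin genes, 42 were listed at 0 and 9 reached 10 units in EBC-1. Over all 26364 symbols, 10224 were listed at 0 and 13371 reached 10 units. Of the 9, 2 were within 2-fold in all 3 resistant libraries, 2 were at least 2-fold higher in EBC-1 and 1 was at least 2-fold lower, beside the 52.0%, 5.88% and 4.21% of all symbols. The keratins of simple epithelia held the highest places. KRT8, type II, was at 15.01 in EBC-1 (rank 86), against 13.50 in EBC-CR1 (rank 374), 13.90 in EBC-CR2 (rank 260) and 13.46 in EBC-CR3 (rank 388). KRT19, type I, was at 14.77 in EBC-1 (rank 110), against 12.34 in EBC-CR1 (rank 955), 13.65 in EBC-CR2 (rank 325) and 12.97 in EBC-CR3 (rank 581). KRT18, the usual type I partner of KRT8, was at 14.39 in EBC-1, with 14.09 (EBC-CR1), 13.81 (EBC-CR2) and 14.10 (EBC-CR3). In EBC-1 KRT8 was above KRT18, whereas KRT18 was above KRT8 in EBC-CR1 and EBC-CR3. KRT8 and KRT18 are neighbours on chromosome 12, and both have many processed pseudogenes, so reads may be split between copies.

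KRT7, a type II keratin of glandular epithelia, was at 12.03 in EBC-1, against 12.80 (EBC-CR1), 12.73 (EBC-CR2) and 13.09 (EBC-CR3). KRT10, a type I keratin of suprabasal epidermis, was at 11.06 in EBC-1, against 10.41 (EBC-CR1), 10.14 (EBC-CR2) and 10.18 (EBC-CR3). KRT80 was at 9.27 in EBC-1, against 10.86 (EBC-CR1), 10.69 (EBC-CR2) and 10.85 (EBC-CR3), and was the 1 keratin of the 9 at least 2-fold lower in EBC-1. KRT15, a basal type I keratin, was at 6.43 in EBC-1, with 5.88 (EBC-CR1), 7.87 (EBC-CR2) and 5.25 (EBC-CR3). The hair keratins KRT81 (3.88) and KRT86 (3.81), whose sequences are nearly alike, completed the 9 in EBC-1. The most abundant of the other intermediate filament genes in EBC-1 were the nuclear lamins LMNA (15.43), LMNB1 (12.58) and LMNB2 (12.01). In the resistant lines LMNB1 was at 12.48 (EBC-CR1), 10.30 (EBC-CR2) and 11.38 (EBC-CR3). LMNB2 was at 12.40 (EBC-CR1), 9.63 (EBC-CR2) and 11.80 (EBC-CR3). SYNC was at 11.41 and NES at 5.73 in EBC-1, each at least 2-fold above every resistant line.

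Of the metabolic classes, glycolysis contributed most to the top of the library. Its 29 genes took 2.01% of EBC-1 units, and GAPDH, ALDOA, ENO1, PKM and TPI1 were in the top 100. GAPDH was at 17.57 in EBC-1, with 17.24 (EBC-CR1), 17.57 (EBC-CR2) and 17.69 (EBC-CR3). ALDOA (aldolase A) was at 15.99 in EBC-1, with 15.35 (EBC-CR1), 16.14 (EBC-CR2) and 16.25 (EBC-CR3). Both enzymes overlapped the resistant lines. ENO1 (enolase) was at 15.79 in EBC-1, against 14.74 (EBC-CR1), 14.81 (EBC-CR2) and 15.22 (EBC-CR3). PKM (pyruvate kinase) was at 15.70 in EBC-1, with 14.38 (EBC-CR1), 15.70 (EBC-CR2) and 14.62 (EBC-CR3). LDHA, which makes lactate, was at 14.45 in EBC-1, with 13.44 (EBC-CR1), 14.62 (EBC-CR2) and 14.16 (EBC-CR3). SLC16A3, a lactate exporter, was at 14.42 in EBC-1, against 12.83 (EBC-CR1), 13.41 (EBC-CR2) and 13.68 (EBC-CR3). The glucose transporter SLC2A1 (10.30) and the hexokinase HK1 (11.15) lay near the list median of 10.59, the hexokinase HK2 was at 9.29, and the gluconeogenic genes FBP1 and PCK1 were listed at 0 in EBC-1. Of 25 members at 10 or more units, 13 were within 2-fold in all 3 resistant libraries, beside 52.0% of all symbols. At least 2-fold lower in EBC-1 was 1, HK1, beside 4.21%.

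All 72 respiratory chain subunits reached 10 units in EBC-1, 59 reached 1000, and they took 1.31% of units. Of the 72, 56 were within 2-fold in all 3 resistant libraries, beside 52.0% of all symbols, and 1, NDUFB2, was at least 2-fold higher in EBC-1. Highest were ATP5L, a subunit of ATP synthase, at 15.52 in EBC-1, with 15.28 (EBC-CR1), 15.25 (EBC-CR2) and 15.18 (EBC-CR3), and UQCRB, of complex III, at 15.37 in EBC-1, with 15.11 (EBC-CR1), 15.41 (EBC-CR2) and 15.05 (EBC-CR3). The 28 TCA cycle genes had a lower median (9.64), and 20 of them were within 2-fold in all 3, again beside 52.0%. MDH2, malate dehydrogenase, was at 13.48 in EBC-1, with 13.09 (EBC-CR1), 12.84 (EBC-CR2) and 12.88 (EBC-CR3), and DLD, PDHA1 (12.31) and SDHC (12.24) came next in EBC-1.

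The pentose phosphate pathway was led by TKT (transketolase), at 14.04 in EBC-1, with 13.67 (EBC-CR1), 15.19 (EBC-CR2) and 13.46 (EBC-CR3). EBC-CR2 was the highest, EBC-1 second and the other two lines lower. The same order held for NQO1, an NRF2 target, at 14.79 in EBC-1 (rank 107), with 14.11 (EBC-CR1), 15.65 (EBC-CR2) and 13.59 (EBC-CR3). The highest of the 42 NRF2 and redox genes was PRDX1 (peroxiredoxin), at 16.02 in EBC-1, with 15.71 (EBC-CR1), 16.55 (EBC-CR2) and 15.62 (EBC-CR3), followed by NQO1, TXNRD1 (14.53) and TXN (13.24) in EBC-1. Of 37 at 10 or more units, 16 were within 2-fold in all 3, beside 52.0% of all symbols. At least 2-fold higher in EBC-1 were 3 (GPX3, AKR1B10 and ABCC2), beside 5.88%. The 1 at least 2-fold lower, beside 4.21%, was SOD2, the mitochondrial superoxide dismutase. SOD2 was at 9.13 in EBC-1, against 13.51 (EBC-CR1), 14.37 (EBC-CR2) and 13.37 (EBC-CR3).

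Cholesterol synthesis had a median of 11.18 over 24 genes, and 11 were within 2-fold in all 3, beside 52.0% of all symbols. FDFT1 (squalene synthase) was in the top 100, at 15.07 in EBC-1, with 14.68 (EBC-CR1), 15.35 (EBC-CR2) and 14.01 (EBC-CR3). INSIG1, a sterol-sensing regulator, was at 11.76 in EBC-1, against 10.09 in EBC-CR1, 10.23 in EBC-CR2 and less than either in EBC-CR3. Fatty acid genes were led by SCD, a desaturase, at 13.75 in EBC-1, with 12.31 (EBC-CR1), 14.31 (EBC-CR2) and 12.42 (EBC-CR3), and by ACLY, which makes cytosolic acetyl-CoA, at 13.04 in EBC-1, against 12.51 (EBC-CR1), 11.35 (EBC-CR2) and 12.33 (EBC-CR3). FADS2, a second desaturase, was at 10.77 in EBC-1, against 8.43 (EBC-CR1), 8.15 (EBC-CR2) and 7.69 (EBC-CR3). Of 29 fatty acid genes at 10 or more units, 14 were within 2-fold in all 3, beside 52.0% of all symbols. At least 2-fold higher in EBC-1 were 4 (ACACB, FADS2, ACSL5 and FABP5), beside 5.88%, and 0 were lower, beside 4.21%. CD36 was listed at 0 in EBC-1.

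Nucleotide synthesis was the metabolic class with the most members higher in EBC-1. All 24 genes reached 10 units. Within 2-fold in all 3 resistant libraries were 7, beside 52.0% of all symbols, and 5 were higher in EBC-1 by 2-fold or more, beside 5.88%. TYMS (thymidylate synthase) was at 11.53 in EBC-1, against 9.69 (EBC-CR1), 9.22 (EBC-CR2) and 9.68 (EBC-CR3). CTPS1 was at 11.54 in EBC-1, against 9.83 (EBC-CR1), 8.70 (EBC-CR2) and 9.42 (EBC-CR3). IMPDH1 (11.40) and TK1 (11.04) were also among the 5. NME2, a nucleoside diphosphate kinase, was the highest of the class, at 15.08 in EBC-1, against 14.21 (EBC-CR1), 13.94 (EBC-CR2) and 14.50 (EBC-CR3); it has a close copy, NME1, at 11.59 in EBC-1. RRM2, the S-phase subunit of ribonucleotide reductase, was at 12.13 in EBC-1, against 11.31 (EBC-CR1), 8.97 (EBC-CR2) and 10.39 (EBC-CR3). The mitotic gene BIRC5 (survivin) was at 12.99 in EBC-1, against 12.23 (EBC-CR1), 10.69 (EBC-CR2) and 12.09 (EBC-CR3). Growth rate was not measured in these libraries.

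Amino acid and polyamine genes were led by SMS (spermine synthase) at 13.53 and ODC1 (ornithine decarboxylase, the first step of polyamine synthesis) at 13.23 in EBC-1. ODC1 was at 12.75 (EBC-CR1), 10.29 (EBC-CR2) and 11.61 (EBC-CR3). SAT1, which breaks polyamines down, was at 11.68 in EBC-1 (rank 1478), against 16.04 in EBC-CR1 (rank 30), 15.30 in EBC-CR2 (rank 64) and 15.80 in EBC-CR3 (rank 38). ODC1 was thus highest and SAT1 lowest in EBC-1. SHMT2, the mitochondrial serine hydroxymethyltransferase, was at 13.12 in EBC-1, with 13.55 (EBC-CR1), 12.18 (EBC-CR2) and 12.68 (EBC-CR3). Amino acid transporters were led by SLC3A2 (12.88), SLC38A1 (12.70) and SLC1A5 (12.45) in EBC-1, each within 2-fold in all 3.

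Metal-handling genes were led by MT2A (metallothionein), at 15.17 in EBC-1, against 15.99 (EBC-CR1), 16.30 (EBC-CR2) and 16.35 (EBC-CR3). FTH1, the ferritin heavy chain, was at 14.71 in EBC-1, against 15.15 (EBC-CR1), 16.33 (EBC-CR2) and 14.90 (EBC-CR3). EBC-1 was the lowest of the 4 libraries for both.

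**Figure D5:**
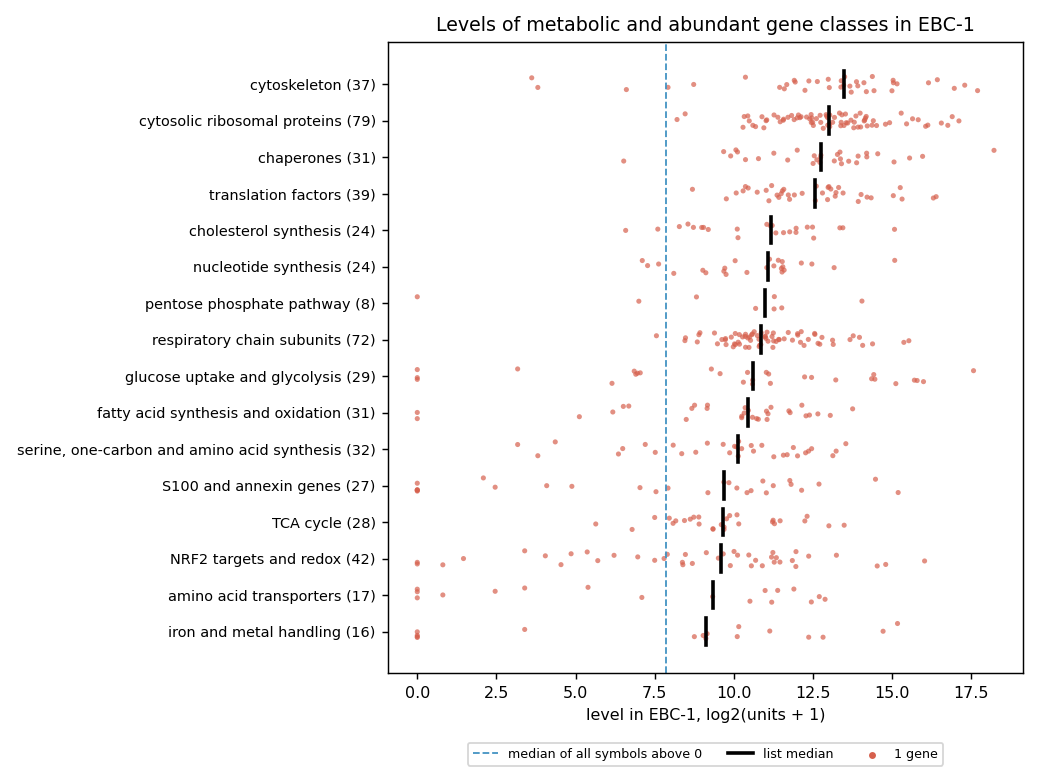
Levels in EBC-1 (log2(units + 1)) of the members of each metabolic and abundant gene class, with the number of members in parentheses. Each red point is a gene, the black bar is the list median (13.47 for the cytoskeleton, 9.64 for the TCA cycle) and the dashed line is the median of all symbols above 0, 7.85.

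Ribosomal protein genes were the largest class of the top 100, with 11 members, followed by 9 cytoskeletal genes and 5 translation factors. The 79 cytosolic ribosomal protein genes took 5.65% of EBC-1 units, and 77 reached 1000 units. Within 2-fold in all 3 resistant libraries were 64 of the 79, beside 52.0% of all symbols. RPLP1, of the ribosomal stalk, was at 17.11 in EBC-1, with 16.81 (EBC-CR1), 17.24 (EBC-CR2) and 16.81 (EBC-CR3). RPS24 (16.89), RPS27A (16.75), RPLP0 (16.55), RPS3 (16.12), RPS14 (16.05) and RPL27A (15.82) were also in the highest 40 of EBC-1. EEF1A1, the elongation factor often near the top of a human cell's transcripts, was at 14.20 in EBC-1 (rank 191), with 15.30 (EBC-CR1), 14.36 (EBC-CR2) and 14.87 (EBC-CR3). EEF1A1 and many ribosomal protein genes have near-identical pseudogenes, and the counting of reads that match several copies is not described in the sources used here. EIF4G1, a scaffold of translation initiation, was at 16.39 in EBC-1, with 16.42 (EBC-CR1), 14.76 (EBC-CR2) and 15.45 (EBC-CR3), and EEF1D was at 16.30 in EBC-1, with 15.10 (EBC-CR1), 16.05 (EBC-CR2) and 16.47 (EBC-CR3).

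The 37 cytoskeletal genes took 4.11% of units and had the highest list median, 13.47, with 16 within 2-fold in all 3. Of the 37, 6 were at least 2-fold higher in EBC-1 (TUBA1A, TUBA1B, TUBB3, TUBB6, TPM3 and CAPG) and 2 at least 2-fold lower (TUBB2B and MYL9). The shares over all symbols were 52.0% within 2-fold, 5.88% higher and 4.21% lower. TUBA1B was at 16.14 in EBC-1 (rank 25), against 14.56 in EBC-CR1 (rank 133), 12.66 in EBC-CR2 (rank 750) and 14.55 in EBC-CR3 (rank 135). The alpha tubulins TUBA1A, TUBA1B and TUBA1C are near-identical copies, so their separate values are uncertain. TUBB3, the beta tubulin of neurons and of many carcinomas, was at 11.91 in EBC-1 and below that in every resistant line. ACTG1 was at 16.96 in EBC-1, with 16.47 (EBC-CR1), 16.25 (EBC-CR2) and 17.29 (EBC-CR3), and ACTB was at 14.99 in EBC-1, against 15.70 (EBC-CR1), 15.50 (EBC-CR2) and 16.42 (EBC-CR3). Among S100 and annexin genes, ANXA2, a membrane-binding protein, was at 15.19 in EBC-1, with 14.50 (EBC-CR1), 14.62 (EBC-CR2) and 14.54 (EBC-CR3). S100A6 was at 14.47 in EBC-1, against 11.54 (EBC-CR1), 13.62 (EBC-CR2) and 10.49 (EBC-CR3).

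The 31 chaperones took 2.64% of units, with 19 within 2-fold in all 3, beside 52.0% of all symbols. HSP90AB1 was at 18.21 in EBC-1, with 18.21 (EBC-CR1), 17.31 (EBC-CR2) and 17.93 (EBC-CR3), and its inducible relative HSP90AA1 was at 15.96 in EBC-1, against 15.37 (EBC-CR1), 14.97 (EBC-CR2) and 15.64 (EBC-CR3). HSPA5, the endoplasmic reticulum chaperone BiP, was at 14.19 in EBC-1, against 16.14 (EBC-CR1), 15.20 (EBC-CR2) and 15.79 (EBC-CR3). It was the 1 chaperone at least 2-fold lower in EBC-1 than in every resistant line, beside 4.21% of all symbols.

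A tied group of 4 symbols closed the top 100: MIR1244-1, MIR1244-2, MIR1244-3 and MIR1244-4, each at 14.84 in EBC-1, with 14.29 (EBC-CR1), 14.09 (EBC-CR2) and 14.25 (EBC-CR3). Their hairpins are identical over 85 bases in RefSeq GRCh38.p14. MIR1244-1 lies inside PTMA (prothymosin alpha) on chromosome 2 and the others inside the PTMA pseudogenes PTMAP2 on chromosome 5, PTMAP4 and PTMAP9 on chromosome 12. The mature miRNA is shown because the 4 copies cannot be told apart by it; capitals mark the seed, bases 2 to 8, and its MIR1244-1 copy lies on the plus strand at chr2:231713368-231713393.
MIR1244-1: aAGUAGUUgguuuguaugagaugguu
PTMA itself was at 16.70 in EBC-1, against 15.96 (EBC-CR1), 15.82 (EBC-CR2) and 16.12 (EBC-CR3). A library primed on poly(A) tails does not measure a mature miRNA of 26 bases, and the assignment of reads from the shared stretch is not described there either. Over the whole table, 168 symbols above 0 in all libraries shared all 4 values with another symbol, of which 8 were at 1000 units or more in EBC-1: the MIR1244 entries, LUZP6 with MTPN, and H3F3A with H3F3AP4.

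Of 31 tumour suppressors and oncogenes, none was listed at 0 in EBC-1. MCL1, an anti-apoptotic BCL2 relative, was the highest, at 13.59 in EBC-1, against 14.76 (EBC-CR1), 14.47 (EBC-CR2) and 13.91 (EBC-CR3). CDK6 (12.71) and CCND3 (12.53), which drive entry to S phase, were within 2-fold in all 3. MYEOV, a gene near CCND1 that is often overexpressed in carcinomas, was at 12.28 in EBC-1, against 0 (EBC-CR1), 4.41 (EBC-CR2) and 3.91 (EBC-CR3). SMAD4, a shared transducer of TGF-beta and BMP signals, was at 7.31 in EBC-1, against 2.39 (EBC-CR1), 0.81 (EBC-CR2) and 0 (EBC-CR3). CDKN2A, a cell cycle inhibitor gene, was at 7.42 in EBC-1, against 11.02 (EBC-CR1), 10.51 (EBC-CR2) and 10.56 (EBC-CR3). Of 31 cancer testis and oncofetal genes, 22 were listed at 0 in EBC-1, beside 10224 of all 26364 symbols. The RNA-binding IGF2BP2 was the highest of the list, at 12.86.

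Secreted factors were led by PSAP, the lysosomal saposin precursor, at 14.86 in EBC-1, against 15.07 (EBC-CR1), 16.75 (EBC-CR2) and 15.37 (EBC-CR3). PLAU (urokinase) was at 14.06 in EBC-1, with 14.45 (EBC-CR1), 14.54 (EBC-CR2) and 13.97 (EBC-CR3). SERPINE2 was at 11.88 in EBC-1, against 8.77 (EBC-CR1), 8.86 (EBC-CR2) and 8.97 (EBC-CR3). SPP1 (osteopontin) was at 10.50 in EBC-1, against 0 (EBC-CR1), 7.26 (EBC-CR2) and 1.81 (EBC-CR3). The neutrophil chemokine CXCL8 was at 7.47 in EBC-1, against 14.95 (EBC-CR1), 11.81 (EBC-CR2) and 12.49 (EBC-CR3). In all, 4 of 42 secreted factors at 10 or more units were at least 2-fold higher in EBC-1 than in every resistant line, beside 5.88% of all symbols. At least 2-fold lower were 10, beside 4.21%, and within 2-fold in all 3 were 8, beside 52.0%.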

How the data were processed

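Total RNA of each of 4 cultures went into 1 Lexogen QuantSeq library, a 3′-end method, per the labels' protocols. Per the submitters' processing notes the tools included Bowtie2 and edgeR and the build was hg19; the gene annotation, strand handling and the role of each tool were not given in the sources used here. Each deposited file holds a log2 level per symbol. Taken back to x from log2(x + 1), values under 500 units were multiples of 0.25 in 100% of cases, to a tolerance of 0.0025 units, and sorted log2 levels differed between libraries by at most 0.81. Quantile-normalized whole counts have this form; this is inferred from the values, and it would hide any global difference. The deposited values are therefore not counts.

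From these, ranks among symbols above 0, shares of units and log2 differences (EBC-1 minus line, floor 10 units, 2-fold) were computed with Python 3.11.15, pandas 2.3.3 and scipy 1.17.1. Reads were estimated from the lowest 100 distinct values, or the lowest 20, and gave exact Poisson 95% intervals, which cover counting error only. The procedure was run on simulated data. The changes planted there were larger than 2-fold, and the copies of EBC-1 compared carried counting error only. Such data cannot show how often separate cultures pass the 2-fold limit without a change. Named genes were the 40 most abundant, the 6 highest of each of 40 lists, all receptor kinases, keratins and squamous markers at 10 units, the 10 largest losses and 10 steadiest ranks of the top 500, and defining markers; a few more were named after their values were seen, and some that the rule names are not reported here. The members and lists were chosen with earlier results of these data known. No test was run, since no line has a second library. RefSeq GRCh38.p14 gave gene order and sequences, since the files give no coordinates.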

Additional observations from a re-analysis of the deposited data

How the results depend on the processing

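With 1.5-fold in place of 2-fold, 3172 symbols were within that range of EBC-1 in all 3 resistant libraries, against 6957. No floor gave 7433, a floor of 50 units 6454 and log2(units + 5) 7246. Leaving out each resistant library in turn gave 7566 to 8630 symbols within 2-fold, and 57 to 60 top 100 symbols shared with the 2 lines left, against 54 with all 3. A line left out can only keep or raise such counts, and a narrower fold or higher floor can only keep or lower them. These directions were fixed in advance, so only the sizes carry information. Without ribosomal protein genes the top 100 overlap with all 3 was 51. The 100 highest ranks then took 25.78% of units, against 26.64%, and MET stood at rank 38, against 46. Over the mean level of the 3 resistant libraries MET stood at rank 51. The share of the list kept was 54.0% for the top 50 and 59.0% for the top 500. Rescaling units to reads divides all by 1 constant, so it cannot move a share and is no check. No paired analysis was possible because each line has 1 library and no test was run. Depth limits the ranks of symbols near 0, where NKX2-1 rests on about 3 reads.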
